A study of Mus musculus with 8 samples.

Results

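The 10 genes described here encode the core of the Notch signalling pathway: the receptors Notch1, Notch2, Notch3 and Notch4, the ligands Jag1, Jag2 and Dll1, the DNA-binding factor Rbpj with its coactivator Maml1, and the fringe glycosyltransferase Lfng. They were taken by name from the gene count tables of 8 RNA-seq libraries of mouse cell lines. All 10 were found in every library, among 53465 genes counted in the fibroblast line and 31053 in the T-lineage line. The rule that lists them uses no measured value, though earlier results of these data were known when they were chosen. NIH-3T3 cells, an embryonic fibroblast line, were either normal (wild type, untreated) or carried the genotype Tcf7 induced, with TCF-1 switched on. The names of the 3T3 alignment files held 72 hours, Cas9 and the word empty in all 4 libraries, and doxycycline in the induced libraries alone, so the drug and TCF-1 cannot be told apart. Scid.adh cells, a thymic lymphoma line used as a model of DN3 thymocytes (precursors at the third CD4- CD8- stage), were either wild type with an empty vector or Tcf7-/-, a TCF-1 knockout. Each of the 4 groups had 2 libraries. The labels do not say whether these came from separate cultures or clones, so p-values measure the spread between libraries, which may be technical.

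Notch receptors are single-pass membrane proteins. A ligand on a neighbouring cell pulls on the receptor, which is then cut by an ADAM protease and by gamma-secretase, and the freed intracellular part joins RBPJ and a Mastermind protein on DNA to switch genes on. In the thymus, Delta-like ligands on stromal cells act on Notch1 of the incoming progenitors, and this signal is required for the T cell fate, in which Tcf7, the gene of the HMG-box factor TCF-1, is an early target. Fringe enzymes add a sugar to the receptor that favours Delta-like over Jagged ligands.

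Total counts over genes ran from 13850213 to 17523677 in 3T3 and from 7740198 to 10392402 in Scid.adh. Tcf7 itself was at 14.5 and 14.6 CPM (counts scaled to the TMM-adjusted library total) in normal and 946 and 971.5 CPM in induced 3T3 libraries. In Scid.adh it was at 1318 and 1325 CPM in empty-vector libraries against 646 and 624.5 CPM in knockout libraries, where transcripts thus remained; the labels do not say which part of the gene was deleted. All 8 fibroblast markers reached a mean of 1 CPM in both 3T3 groups, and all 8 DN3 markers did so in both Scid.adh groups. In Scid.adh with the empty vector, 1 of 8 fibroblast markers reached that level and 3 were at 0, while in the knockout 5 reached it and none was at 0. Summed over its markers, the DN3 list was at 4183 and 4138 CPM against 3220 and 3343 CPM in the knockout. It holds Ptcra and Il2ra, which are also among the Notch response genes counted below. Il2ra alone was at 1259 and 1264 CPM against 797 and 845 CPM in the knockout. The fibroblast list, mostly Pdgfrb, was at 122 and 127 CPM against 11.9 and 11.3 CPM. Of the 4 markers of NK and innate lymphoid cells, 1 stood above that level in each line: in 3T3 the list, nearly all Il1rl1, was at 535 and 538 CPM against 194 and 191 CPM after induction, and in Scid.adh, nearly all Gzma, at 381 and 391 CPM against 566 and 533 CPM. The part of these shifts in the changes of the Notch genes was not tested. CPM are scaled within each line.

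In 3T3 with TCF-1 induced, Notch1 was 1.95-fold higher, Rbpj 1.22-fold lower and Jag1 1.14-fold lower than in normal cells, and the other 7 genes did not pass the test. In the Tcf7 knockout of Scid.adh, Notch1 was 2.16-fold and Notch2 1.72-fold lower than with the empty vector. The ligands Jag2 and Dll1 were 2.39-fold and 3.18-fold higher there, from very low levels. Thus 3 of 10 members were called in 3T3 at an adjusted p under 0.05 (edgeR quasi-likelihood test), 1 up and 2 down, where 36.8% of all 18185 tested genes were called, 18.5% up and 18.3% down. In Scid.adh 4 of 8 tested members were called, 2 up and 2 down, where 31.5% of 11941 genes were called, 15.6% up and 15.9% down. Jag1 and Lfng were too low to be tested there. The median log2 fold change was 0.08 over the 10 members tested in 3T3 and 0.09 over the 8 tested in Scid.adh, against 0.00 and -0.00 over all tested genes. In bulk libraries, fewer cells with a transcript and less transcript per cell cannot be told apart.

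**Figure D1:**
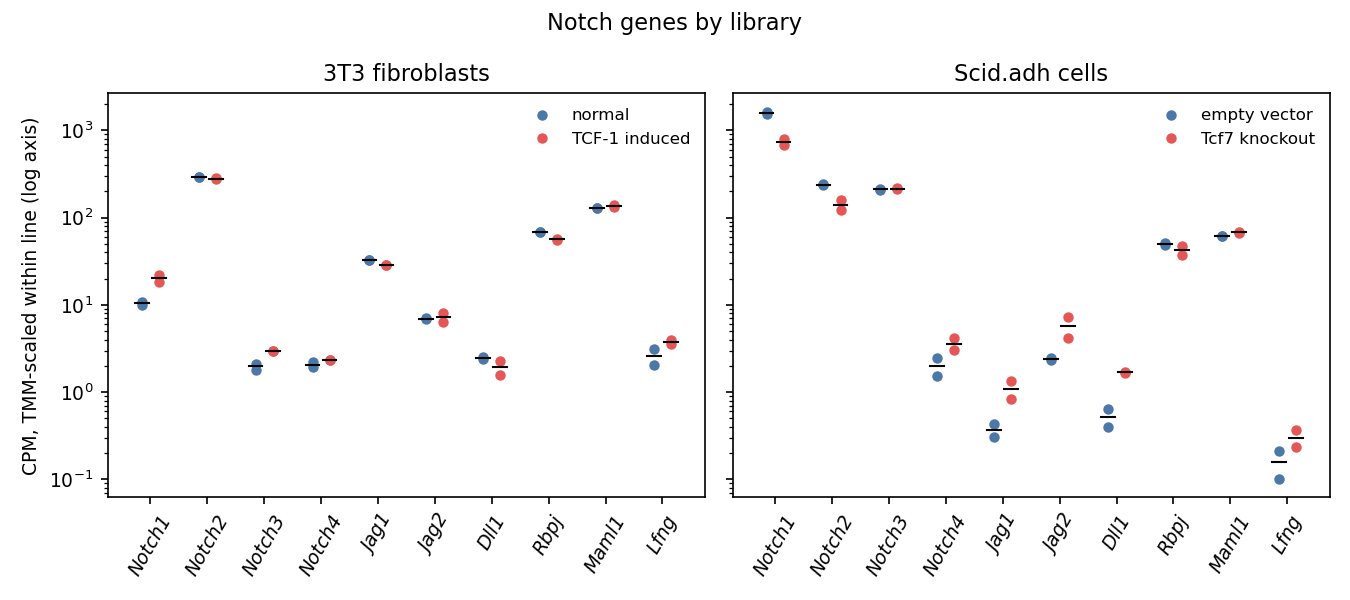
CPM of the 10 Notch genes in each library (points, log axis) with the mean of 2 libraries (bars), in 3T3 (left) and Scid.adh (right), blue for control and red for changed cells. Notch1 stands at 679 CPM or more in every Scid.adh library and at 22.2 CPM or less in every 3T3 library.

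The lines differed in which receptor carried most of the transcripts. Levels of different genes were compared as CPM per kb of merged exon length. In normal 3T3 cells the order ran from Notch2 (27.1) and Maml1 (23.3) through Jag1 (5.59) and Rbpj (5.37) to Lfng (1.04), Jag2 (1.00), Notch1 (0.733), Dll1 (0.581), Notch4 (0.257) and Notch3 (0.244). The libraries of the neighbours Lfng and Jag2, and of Notch4 and Notch3, overlapped on that scale. After induction Notch1 stood at 1.42 per kb, next to Lfng at 1.5, and these neighbours overlapped. In Scid.adh with the empty vector the order was Notch1 (112), Notch3 (26.0), Notch2 (22.3), Maml1 (11.1) and Rbpj (3.92), followed by Jag2 (0.343), Notch4 (0.246), Dll1 (0.124), Lfng (0.0627) and Jag1 (0.0626), the last pair overlapping. In the knockout the order was the same apart from Jag1 (0.186) and Lfng (0.120), which again overlapped, with Notch1 at 51.7, Notch3 at 26.7 and Notch2 at 12.9 per kb, and Notch2 overlapped Maml1 at 12.4. Notch4 (0.446) and Dll1 (0.399) overlapped there too.

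As a share of the 4 receptors on that scale, Notch2 made up 95.7% and 95.5% in normal and 92.2% and 93.0% in induced 3T3 libraries, and Notch1 2.5% and 2.68% against 5.50% and 4.66%. In Scid.adh, Notch1 made up 70.1% and 69.3% of the empty-vector and 55.7% and 56.9% of the knockout libraries. The share of Notch3 was 16.1% and 16.3% against 30.7% and 27.6%, with its own CPM nearly level, and that of Notch2 was 13.6% and 14.2% against 13.1% and 15%. Notch4 stayed at or under 1.04% of the receptors in every library. On a joint scale of all 8 libraries, Notch1 was 140-fold and Notch3 98.3-fold higher in empty-vector Scid.adh than in normal 3T3 cells, and Jag1 was 97.3-fold higher in 3T3. These folds carry no test, since the line and the way its reads were counted cannot be told apart.

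**Figure D2:**
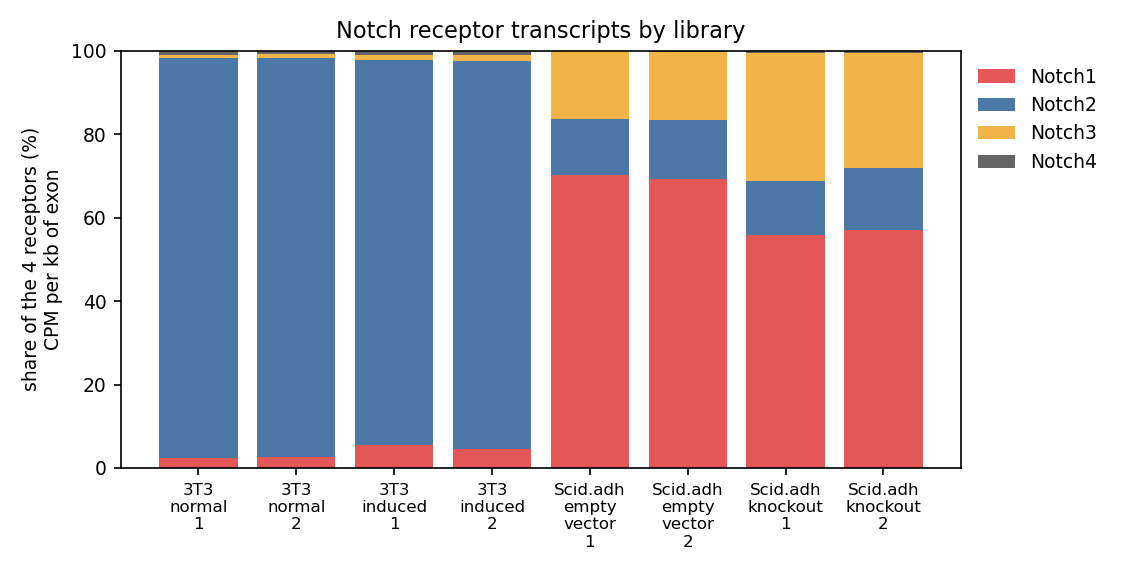
Share of each receptor in the summed level of the 4 Notch receptors (CPM per kb of exon, percent) in each of the 8 libraries, as stacked bars from 0. Notch2 fills 92.2% or more of every 3T3 bar, and Notch1 fills 55.7% to 70.1% of the Scid.adh bars.

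Notch1, the receptor required for T cell commitment (ENSMUSG00000026923, GRCm38 chromosome 2, 26457903 to 26516663, minus strand), was at 10.01 and 10.9 CPM in normal and 22.2 and 18.3 CPM in induced 3T3 libraries. Both induced libraries lay above both normal ones, and the log2 fold change was 0.96 (SE 0.11, adjusted p = 3.10e-10 by edgeR). In Scid.adh it was at 1633 and 1547 CPM in empty-vector libraries against 679 and 793 CPM in knockout libraries. The groups were far apart relative to the gap within each, with a log2 fold change of -1.11 (SE 0.07, 95% interval -1.26 to -0.96, adjusted p = 3.72e-07). Notch1 was therefore higher in the group with more Tcf7 transcript in each line. The antisense gene 0610009E02Rik shares 7.5% of the Notch1 exon bases and stood at 1.19 and 1.26 CPM in normal and 2.71 and 2.16 CPM in induced 3T3 libraries, with a log2 fold change of 1.00 (SE 0.28, adjusted p = 0.00360), a call lost with DESeq2 and without the first induced library (0.82). The strand setting of the counts is not given, so reads from these overlapping exons cannot be told apart. In these libraries 0610009E02Rik had 19 to 46 counts and Notch1 160 to 377, and the part of the shared bases in the change of Notch1 was not tested. None of the other genes that share exon bases with a member was called where it was tested, namely Gm42820 (Notch2), Gm17276 (Notch3), Gm26542 (Maml1) and A930024N18Rik (Dll1), while Gm13568 (Notch1) was too low for the test. In Scid.adh, however, Gm17276 passed in the joint fit (1.11) and without the first knockout library (1.49), and A930024N18Rik after a correction for expression level. The genes 0610009E02Rik, Gm13568 and Gm42820 were not among those counted in Scid.adh. The part of this in the levels of Notch1 and Notch2 was not tested.

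Notch2, the receptor with the highest level in 3T3 (ENSMUSG00000027878, chromosome 3, 98013527 to 98150361, plus strand), was at 290.5 and 293 CPM in normal and 282 and 277 CPM in induced 3T3 libraries. The induced libraries were slightly lower, and the log2 fold change of -0.06 (SE 0.04, 95% interval -0.14 to 0.01, adjusted p = 0.179) did not pass. In Scid.adh, Notch2 was at 240.3 and 239.7 CPM in empty-vector against 121 and 158 CPM in knockout libraries. Both knockout libraries were below both controls but far from each other, and the log2 fold change was -0.78 (SE 0.10, adjusted p = 1.91e-04). The share of reads assigned to no gene feature, which need not lie outside genes, was 22.3% and 25.8% in these knockout libraries. With the empty vector it was 21.3% and 21.6%. The part of this share in such gaps between knockout libraries was not tested.

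The 250 bases before the RefSeq start of these receptors are shown because Notch1 and Notch2 were the receptors that fell together in the knockout, while only Notch1 rose in 3T3. They are 5′ to 3′ on the strand of the gene, from the RefSeq promoter table (GRCm38.p6), at chr2:26503823-26504072 for Notch1 and chr3:98013288-98013537 for Notch2. The Notch1 window lies inside the annotated gene, since GENCODE M21 gives it a start further upstream.
Notch1: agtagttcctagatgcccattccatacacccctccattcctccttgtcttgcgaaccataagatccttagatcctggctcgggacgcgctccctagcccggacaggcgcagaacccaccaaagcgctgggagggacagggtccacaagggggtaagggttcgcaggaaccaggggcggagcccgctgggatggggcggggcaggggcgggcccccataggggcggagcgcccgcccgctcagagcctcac
Notch2: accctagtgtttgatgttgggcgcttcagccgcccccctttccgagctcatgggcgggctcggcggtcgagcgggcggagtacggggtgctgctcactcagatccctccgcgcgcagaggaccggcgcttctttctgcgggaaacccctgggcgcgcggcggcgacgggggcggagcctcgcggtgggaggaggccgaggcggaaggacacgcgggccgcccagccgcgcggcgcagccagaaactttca
Neither window holds the TCF/LEF letters CTTTGAT or CTTTGAA or the RBPJ letters GTGGGAA on either strand, which 7.48% and 5.42% of 32851 RefSeq windows of this length hold. The windows are rich in G and C, at 66.0% and 72% of bases against a median of 52.4% over all windows. No match says only that these letters are not in these windows.

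Notch3, a receptor that thymocytes at the pre-TCR stage are known to carry (ENSMUSG00000038146, chromosome 17, 32120820 to 32166852, minus strand), was at 214 and 207 CPM in empty-vector against 213 and 218 CPM in knockout libraries. The libraries of the groups overlapped, with a log2 fold change of 0.04 (95% interval -0.10 to 0.17, adjusted p = 0.706). In 3T3 it was near the floor of the data, at 1.81 and 2.13 CPM in normal and 2.94 and 2.95 CPM in induced libraries. Both induced libraries were higher, but the log2 fold change of 0.58 (SE 0.24, adjusted p = 0.0535) missed the threshold, and it passed with 4 of the 14 other settings tried.

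Notch4, best known from endothelium (ENSMUSG00000015468, chromosome 17, 34564268 to 34588503, plus strand), was low throughout. It stood at 2.19 and 1.95 CPM in normal and 2.36 and 2.31 CPM in induced 3T3 libraries, both induced ones slightly higher, with an adjusted p of 0.642. In Scid.adh it was at 1.51 and 2.46 CPM in empty-vector against 3.04 and 4.15 CPM in knockout libraries. Both knockout libraries were higher, with a log2 fold change of 0.86 (SE 0.37, adjusted p = 0.0925) that did not pass. It passed in the joint fit (0.84), and over all settings it ran from 0.41 after the correction for expression level to 1.23 without the second empty-vector library. Summed over its markers, the endothelial list was at 75.5 and 76.0 CPM against 76.2 and 77.6 CPM. Only 1 of its 4 markers reached a mean of 1 CPM in either group, so this sum says little of the list as a whole.

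Jag1, a ligand of the Jagged type (ENSMUSG00000027276, chromosome 2, 137081456 to 137116644, minus strand), was the most abundant of the 3 ligands in 3T3, at 32.3 and 32.9 CPM in normal and 28.9 and 28.5 CPM in induced libraries. The groups did not overlap, and the log2 fold change of -0.18 (SE 0.07, adjusted p = 0.0471) lay just past the threshold. It missed it with DESeq2, with no low-count filter, in a joint fit of 8 libraries and whichever library was left out, at log2 fold changes from -0.21 to -0.17 over all settings. In Scid.adh, Jag1 had 3 and 4 counts in empty-vector and 11 and 7 in knockout libraries, below the filter. The ratio of knockout to empty vector per TMM-adjusted library total was 2.98, with a 95% counting interval from 1.19 to 8.44 that leaves out the spread between libraries.

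Jag2, the second Jagged ligand (ENSMUSG00000002799, chromosome 12, 112907819 to 112929776, minus strand), was at 7.07 and 6.89 CPM in normal and 8.01 and 6.42 CPM in induced 3T3 libraries, which overlapped (adjusted p = 0.787). In Scid.adh it was at 2.32 and 2.46 CPM in empty-vector against 7.30 and 4.15 CPM in knockout libraries. Both knockout libraries were higher, the first of them much more so, and the log2 fold change was 1.26 (SE 0.34, adjusted p = 0.0134). Without the first knockout library it was 0.79 and no longer passed, and the call was also lost with DESeq2 and after a correction for expression level (0.93).

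Dll1, a Delta-like ligand (ENSMUSG00000014773, chromosome 17, 15367354 to 15376872, minus strand), was at 2.38 and 2.53 CPM in normal and 2.30 and 1.59 CPM in induced 3T3 libraries, both induced ones lower (log2 fold change -0.31, SE 0.25, adjusted p = 0.368). In Scid.adh it had 4 and 6 counts in empty-vector and 14 and 14 in knockout libraries, or 0.403 and 0.641 against 1.70 and 1.66 CPM. The knockout libraries were alike and both higher, and the log2 fold change was 1.67 (SE 0.48, adjusted p = 0.0184). The call was lost with DESeq2, after the correction for expression level (0.61) and whichever library was left out (1.36 to 2.01). The antisense gene A930024N18Rik shares 20.6% of the Dll1 exon bases and was at 1.31 and 1.39 CPM against 0.973 and 0.475 CPM, with a log2 fold change of -0.89 (adjusted p = 0.188), which was -1.94 and passed after the correction for expression level.

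Jag2 and Dll1, and Notch4, belong to the 2941 Scid.adh genes with a mean under 5 CPM. Of these, 31.9% were called up and 4.56% down, and their median log2 fold change was 0.58. Of the 4556 genes at 50 CPM or more, to which Notch1, Notch2, Notch3 and Maml1 belong, 8.52% were called up and 28.0% down, with a median of -0.09.

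Lfng, the fringe enzyme that modifies Notch receptors (ENSMUSG00000029570, chromosome 5, 140607320 to 140615545, plus strand), was at 2.06 and 3.16 CPM in normal and 3.53 and 3.96 CPM in induced 3T3 libraries. Both induced libraries were higher, but the normal ones differed nearly as much, and the log2 fold change of 0.50 (SE 0.22, adjusted p = 0.0677) did not pass. Without the second normal library it was 0.85 and passed, and without the first it was 0.24 and did not. In Scid.adh, Lfng had 1 and 2 counts in empty-vector and 3 and 2 in knockout libraries, a ratio of 1.93 with a 95% counting interval from 0.376 to 12.4, so no change was detectable at this depth. Lfng is the member whose RefSeq window holds the RBPJ letters, 109 bases before the start, shown in capitals in the 250 bases at chr5:140607091-140607340.
Lfng: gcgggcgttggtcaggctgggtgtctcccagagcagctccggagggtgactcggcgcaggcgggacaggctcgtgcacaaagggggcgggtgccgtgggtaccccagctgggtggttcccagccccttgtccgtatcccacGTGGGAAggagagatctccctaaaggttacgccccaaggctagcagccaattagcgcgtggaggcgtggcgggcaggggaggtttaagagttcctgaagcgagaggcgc

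Rbpj, which binds DNA and passes from a repressor to an activator complex when Notch is cut (ENSMUSG00000039191, chromosome 5, 53466152 to 53657362, plus strand), was at 68.7 and 68.4 CPM in normal and 55.4 and 57.6 CPM in induced 3T3 libraries. The groups were well apart, and the log2 fold change was -0.28 (SE 0.06, adjusted p = 6.79e-05). Rbpj in Scid.adh was at 51.1 and 48.9 CPM in empty-vector against 36.8 and 47.4 CPM in knockout libraries. The second knockout library lay just under the controls and the first well below, and the log2 fold change of -0.25 (SE 0.12, 95% interval -0.50 to 0.01, adjusted p = 0.132) did not pass. Without the second knockout library it was -0.44 and passed, without the first it was -0.088 and did not, and in the joint fit it passed at -0.27.

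Maml1, a Mastermind coactivator that bridges RBPJ and the receptor to histone acetyltransferases (ENSMUSG00000050567, chromosome 11, 50255634 to 50292311, minus strand), was at 129.5 and 128 CPM in normal and 141 and 134 CPM in induced 3T3 libraries. The induced libraries were slightly higher, with a log2 fold change of 0.10 (SE 0.04, 95% interval 0.01 to 0.19, adjusted p = 0.0851) that did not pass. It passed without the second induced library and with the level correction, at 0.13 in each. Scid.adh libraries had it at 61.8 and 61.5 CPM against 67.6 and 69.1 CPM, again higher in both changed libraries, with a log2 fold change of 0.15 (95% interval -0.03 to 0.33, adjusted p = 0.200). Of the 12 RefSeq windows of the 10 members, that of Maml1 at chr11:50292337-50292586 was the only window with the TCF/LEF letters, CTTTGAT on the gene's strand 78 bases before the start (capitals). A match of letters is no measure of binding.
Maml1: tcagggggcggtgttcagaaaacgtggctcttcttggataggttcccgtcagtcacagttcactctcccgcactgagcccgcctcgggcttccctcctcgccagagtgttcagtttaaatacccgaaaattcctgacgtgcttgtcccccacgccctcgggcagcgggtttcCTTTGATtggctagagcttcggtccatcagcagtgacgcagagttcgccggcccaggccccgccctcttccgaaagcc

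**Figure D3:**
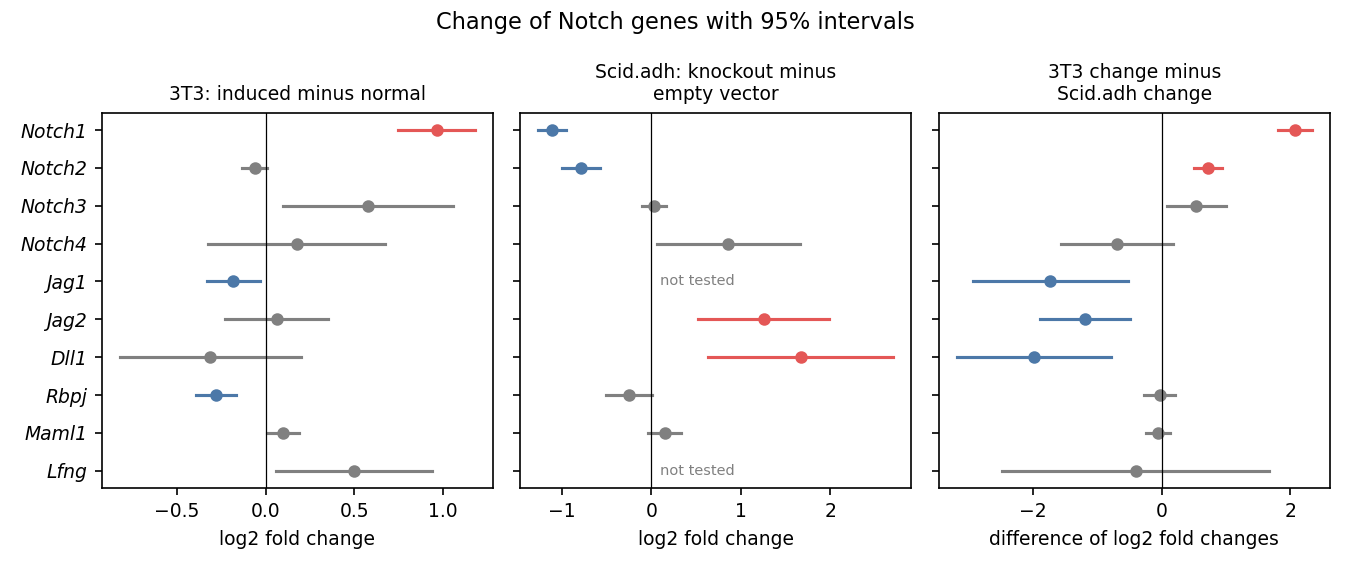
Log2 fold change of each Notch gene with its 95% interval in 3T3 (left), in Scid.adh (middle) and the difference of the changes, 3T3 minus Scid.adh (right); red passed the test upward, blue downward, grey did not. Notch1 is at 0.96 and -1.11 in the lines, a difference of 2.08.

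The change in 3T3 minus the change in Scid.adh was tested in 1 joint edgeR fit of 8 libraries. By the labels, TCF-1 was gained in 1 line and lost in the other. A gene that was higher with more Tcf7 transcript in both lines, such as Notch1, therefore has a positive difference. A gene with like changes in both contrasts, such as Rbpj (-0.30 in 3T3 and -0.27 in Scid.adh in this fit), has a small one. All 10 members were tested, and 5 differed, 2 up and 3 down, where 30.7% of 15854 genes differed, 14.6% up and 16.1% down. The receptors Notch1 (2.08, SE 0.13, adjusted p = 3.37e-12) and Notch2 (0.72, SE 0.10, adjusted p = 1.17e-05) had the higher change in 3T3. Jag1 (-1.73, SE 0.59), Jag2 (-1.19, SE 0.34) and Dll1 (-1.99, SE 0.59) had the lower, at adjusted p-values of 0.0248, 0.00767 and 0.00930. The 3 ligand differences rest on few counts in Scid.adh, and after the correction for expression level 1 of the 3, Jag2, still passed. Jag2 missed the threshold without the first knockout library (-0.70), Dll1 without the first empty-vector library (-1.66) and with DESeq2 (-1.97), and Jag1 without the first knockout library (-1.32) or either empty-vector library (-1.47 and -1.95). Notch3 (0.54, adjusted p = 0.0631), Notch4 (-0.69), Rbpj (-0.03), Maml1 (-0.05) and Lfng (-0.40) did not pass. The Notch3 difference passed with the size factors of DESeq2 (0.59) and with the length correction (0.71), and that of Notch4 ran from -1.04 to -0.19 over all settings without passing. For Rbpj and Maml1 the 95% intervals of the difference ran from -0.28 to 0.22 and from -0.23 to 0.14. The median over the 10 members was -0.22, against -0.07 over all genes tested.

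Around these members, 50 further genes of the pathway and 11 known response genes were counted by role. Of the 48 pathway genes tested in 3T3, 15 rose and 12 fell (median log2 fold change 0.02), and of the 47 tested in Scid.adh, 6 rose and 14 fell (median -0.04). These counts, and those of each role that follow, are to be read against the shares over all genes. In 3T3, 18.5% rose and 18.3% fell, and in Scid.adh 15.6% and 15.9%. These shares vary with level. Of genes at 50 CPM or more, 27.5% rose and 34.0% fell in 3T3, and 8.52% and 28.0% in Scid.adh. Of genes under 5 CPM, 7.28% rose and 9.09% fell in 3T3, and 31.9% and 4.56% in Scid.adh. Other Mastermind genes were among those called. Maml2, a coactivator of the same family, was at 125 and 127 CPM in normal and 96.2 and 97.7 CPM in induced 3T3 libraries, a log2 fold change of -0.38 (SE 0.05, adjusted p = 5.50e-09). In Scid.adh it was at 10.9 and 12.8 CPM in empty-vector against 0.243 and 0.949 CPM in knockout libraries, where 2 and 8 counts remained, a log2 fold change of -4.27 (SE 0.39, adjusted p = 7.14e-06). Maml3 rose in 3T3 by 0.37 on the log2 scale. Of 7 coactivator genes tested, 3 rose and 3 fell in 3T3, with the acetyltransferase gene Kat2b up by 0.36. None rose and 4 fell in Scid.adh, with Kat2a (-0.36) and Crebbp (-0.35) after Maml2.

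Of the 10 sheddase and gamma-secretase genes, which cut the receptor, 4 rose and 2 fell in 3T3. Psen2, a catalytic subunit of gamma-secretase, was at 7.70 and 7.07 CPM in normal and 12.5 and 13.5 CPM in induced libraries (log2 fold change 0.81, SE 0.12), and Aph1b, which shares near-identical sequence with Aph1c and is uncertain for that reason, was at -0.58. In Scid.adh, 0 of 9 tested genes rose and 2 fell. Psen2 was at 25.7 and 28.2 CPM in empty-vector against 15.3 and 17.2 CPM in knockout libraries (-0.73, SE 0.14), and Aph1a was at -0.75. Psen2 thus rose in 1 line and fell in the other, and the difference was 1.54 (SE 0.19, adjusted p = 7.69e-08). Of the enzymes that add sugars to Notch, Poglut1 (0.32) and Rfng (0.29) rose among 3 tested in 3T3, and Mfng (-0.47) and Rfng (-0.51) fell among 4 tested in Scid.adh. Mfng, a fringe like Lfng, was at 40.0 and 42.1 CPM in empty-vector against 30.0 and 29.2 CPM in knockout libraries, well above Lfng in the same libraries.

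Of the other 5 ligand genes, 4 were tested in 3T3, where Dlk1, a ligand-like membrane protein without the domain by which Delta and Jagged bind Notch, fell by 0.10 on the log2 scale. In Scid.adh, 2 of 3 tested rose and none fell. Those that rose, Dll3 and Dlk1, belong to the Scid.adh genes under 5 CPM, of which 31.9% were called up. Dll3 had a log2 fold change of 1.44, from 13 and 9 to 24 and 28 counts. Dlk1 went from 1 and 1 to 10 and 12 counts, a ratio of 12.7 per TMM-adjusted library total with a 95% counting interval from 3.13 to 112. Of the 4 ubiquitin ligases that drive uptake of ligands, Neurl1a rose in both lines. It was at 10.3 and 10.7 CPM in normal and 18.8 and 15.3 CPM in induced 3T3 libraries (0.71, SE 0.11), and at 1.71 and 3.10 CPM in empty-vector against 11.1 and 11.9 CPM in knockout libraries (2.26, SE 0.28). Mib1 fell in 3T3 (-0.26), and Mib2 rose in Scid.adh (0.59).

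Among 10 genes of receptor turnover, 2 rose and 3 fell in 3T3, and 1 rose and 2 fell in Scid.adh. Dtx3l, a Deltex ubiquitin ligase, rose by 1.11 on the log2 scale in 3T3 and was at -0.37 in Scid.adh. Dtx4 had log2 fold changes of -0.63 and -0.65 in the lines, Dtx3 -0.26 in 3T3, and Numbl, a Numb relative, 1.05 in Scid.adh. Among 10 corepressor genes of RBPJ, 3 rose and 2 fell in 3T3, led by Hdac1 (0.30), L3mbtl3 (-0.23) and Ctbp1 (0.16), and 1 rose and 4 fell in Scid.adh, among them Cir1 (0.48) and Spen (-0.45). In Scid.adh the calls of Dll3, Dlk1, Rfng, Mib2, Numbl, Dtx4 and Cir1, and in 3T3 those of Aph1b, Rfng and L3mbtl3, were lost with DESeq2. The correction for expression level ended the calls of Dll3 (0.81), Dlk1 (2.09) and Mib2 (0.49) in Scid.adh and of Dlk1 in 3T3 (-0.04). In Scid.adh, Rfng was also lost with upper-quartile factors and limma-voom, and Dtx4 with upper-quartile factors, a mean of at least 1 CPM and the replicate block. A mean of at least 5 CPM ended both calls, and no low-count filter those of Mib2 and Cir1. In 3T3 the joint fit ended the calls of Rfng and Dlk1, and the length correction that of L3mbtl3. Calls were also lost with 1 library left out. In 3T3 this held for Dlk1 and Ctbp1 without either normal library, Aph1b, Rfng and L3mbtl3 without the second normal one, Aph1b without the first induced one, and L3mbtl3 and Dtx3 (-0.14) without the second induced one. In Scid.adh it held for Dll3, Numbl and Aph1a without the second empty-vector library, Rfng, Mib2 and Cir1 without the first, Mib2 and Cir1 without the first knockout library, Rfng without the second, and Dtx4 without any of them. Dtx3l shares exon bases with Parp9 and Aph1a with Car14 on the opposite strand.

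Of the 11 response genes, 7 of the 8 tested fell in Scid.adh and none rose. Their median log2 fold change was -0.63 against -0.00 over all genes, of which 15.9% fell and 15.6% rose. Apart from Hes5, the tested ones belong to the Scid.adh genes at 50 CPM or more. Of that class 28.0% fell and 8.52% rose, with a median of -0.09. Nrarp, a feedback inhibitor of Notch, was at 85.7 and 80.8 CPM in empty-vector against 28.2 and 30.0 CPM in knockout libraries (-1.52, SE 0.10), Dtx1 fell by 0.79 and Hes5 by 0.85 on the log2 scale. Hes1 did not pass (0.07, adjusted p = 0.603). In 3T3, 2 of 7 tested rose and 1 fell, where 18.5% and 18.3% of all genes did. Hes1, a repressor of the basic helix-loop-helix class, was at 24.3 and 25.9 CPM in normal and 47.4 and 51.6 CPM in induced libraries (0.97, SE 0.07), Trib2 was at 0.53 and Myc at -0.71. Of Nrarp exon bases 79.4%, and of Hes5 31.8%, lie under an antisense gene.

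**Figure D4:**
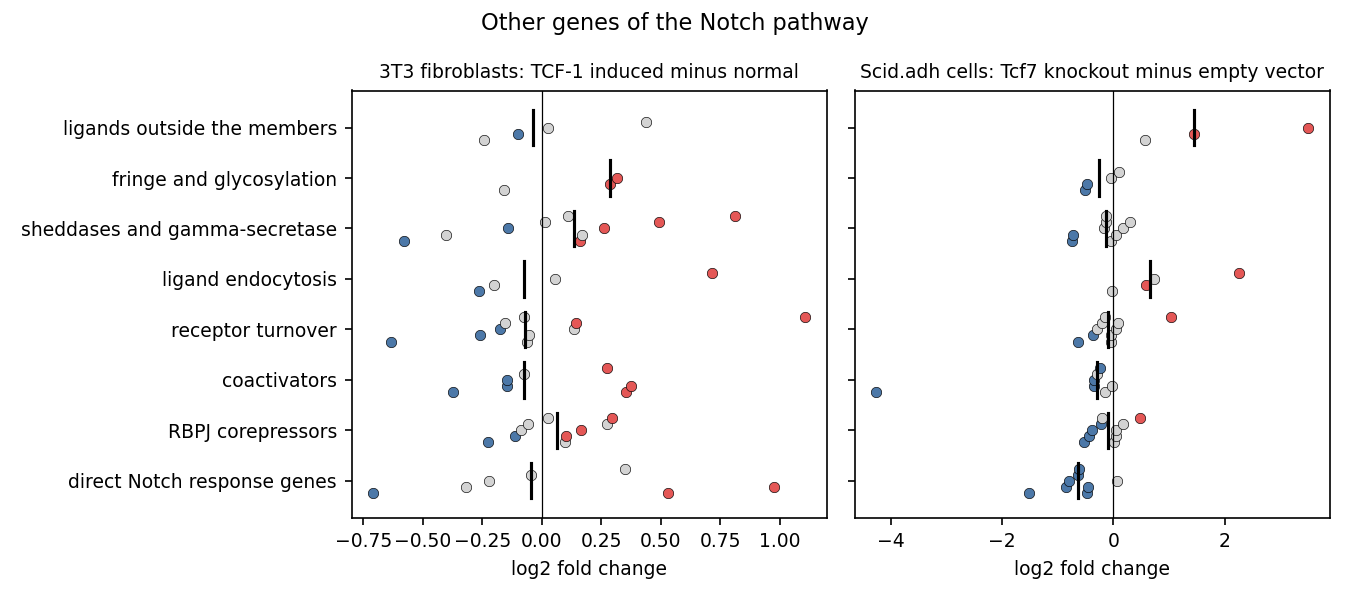
Log2 fold change of each tested pathway gene by role (points; red passed the test upward, blue downward, grey did not) with the median of each list (black bars), in 3T3 (left) and Scid.adh (right). Of the response genes tested in Scid.adh, 7 of 8 lie left of 0, with a list median of -0.63, and Maml2 stands apart at -4.27.

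The genes whose pattern over the 8 libraries was most like that of Notch1, among 11142 genes averaging 5 CPM or more, were H2-T3, Nfatc2, Rftn1, Itgal and Unc93b1. The root mean square difference of their centred log2(CPM + 0.5) values from those of Notch1 ran from 0.293 (H2-T3) to 0.387 (Unc93b1), and Pearson's r from 0.993 to 0.996. All 5 are, like Notch1, far higher in Scid.adh, and the points share line and counting table, which this measure of likeness includes. In the knockout Nfatc2 was at 61.1 CPM against 118 with the empty vector (log2 fold change -0.92, SE 0.08). In 3T3 none of the 3 that were tested passed, namely H2-T3 (0.46, adjusted p = 0.435), Nfatc2 (0.24, adjusted p = 0.723) and Itgal (0.60, adjusted p = 0.291).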

How the data were processed

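The values are gene counts deposited by the authors, 1 file per library, from stranded total RNA libraries (SMARTer Pico, version 2) sequenced paired-end, per the labels' protocols. STAR 2.5.0a, HTSeq 0.6.1 and GRCm38 are named in the submitters' processing notes. The 3T3 tables were made from merged alignments, per the file headers, and their layout differs from that of HTSeq. Strand setting, annotation release and the counter of the 3T3 reads: not given in the sources used here. Unassigned reads, listed for Scid.adh alone, were left out: 21.3% to 25.8% of reads were assigned to no gene feature and 2.20% to 2.44% were ambiguous.

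Each line was fitted alone over all genes with edgeR 4.0.16 in R 4.3.3 (filterByExpr, TMM, robust quasi-likelihood F-test, Benjamini-Hochberg adjustment, call at an adjusted p under 0.05). Replicate libraries varied by 2.41% (3T3) and 5.94% (Scid.adh), as edgeR's biological coefficient of variation. The difference between lines was an interaction in 1 joint fit over the 30731 genes of both tables. CPM are TMM-scaled. Counting intervals are 95% and cover counting error only. Symbols, positions, exon lengths and overlaps came from GENCODE M21, which lacked 191 genes of the 3T3 and 119 of the Scid.adh table but no member, and promoter windows from RefSeq (GRCm38.p6). Motifs were searched on both strands in the 250 bases before each start.

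The members and lists were chosen with earlier results of these data known. The text names all members, Tcf7, up to 3 called genes with the largest change per list and line (some are not reported here), genes overlapping a member, and the 5 genes most like Notch1; Hes1 in Scid.adh was added as the only tested response gene that did not pass. Alternatives were DESeq2 1.42.0, its size factors, upper-quartile factors and limma-voom (limma 3.58.1). Others were 2 other filters, the replicate block, the joint fit and each library left out. Corrections for exon length and expression level, and a mean of at least 5 CPM, were added after seeing the data. The corrections used lowess on each library's deviation in log2 CPM from the gene mean (prior count 2, span 0.3). A fallback for normalized values was not needed. The fits were tested on simulated data. Tables used pandas 2.3.3 and SciPy 1.17.1 in Python 3.11.15, and figures matplotlib 3.10.9.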

Additional observations from a re-analysis of the deposited data

Results flagged for a closer look

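For 5 of the 10 members, the change in 3T3 with TCF-1 induced and that in Scid.adh with Tcf7 knocked out differed. The edgeR test was of the difference itself, given here as the log2 fold change in 3T3 minus that in Scid.adh. By the labels TCF-1 was gained in 1 line and lost in the other, so a difference does not by itself mean opposite relations to Tcf7. The difference was 2.08 for Notch1, which was higher in 2 of 2 induced and lower in 2 of 2 knockout libraries. It was 0.72 for Notch2, which fell in 2 of 2 knockout libraries. It was -1.73 for Jag1, -1.19 for Jag2 and -1.99 for Dll1, whose Scid.adh counts were 60 or fewer in every library. Their causes were not tested.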

How the results depend on the processing

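Of the values of single genes, 1145 kept direction and side of the threshold over the alternatives, 75 lost a call, 16 gained one and 13 changed sign. The changes of Notch1 kept direction and call in all 15 alternatives of each line, from 0.81 to 1.09 in 3T3 and from -1.22 to -0.92 in Scid.adh, as did the fall of Notch2 in Scid.adh (-0.99 to -0.61). The causes of the changes below were not tested. In 3T3 the members called up numbered 1, and 2 with a mean of at least 1 CPM or the length correction, 3 with the level correction, and 1 to 2 with a library left out. Those called down numbered 2, but 1 with DESeq2, with no filter, in the joint fit and with any library left out (1 to 1), Jag1 being lost. In Scid.adh the 2 members called up became 0 with DESeq2, the level correction or a mean of at least 5 CPM (5 members tested), 4 in the joint fit, and 0 to 1 with a library left out. Of other pathway genes and response genes together, 13 were called down in 3T3 (7 with DESeq2, 6 to 13 with a library left out) and 6 up in Scid.adh (1 with DESeq2). The members with the lower change in 3T3 than in Scid.adh numbered 3, and 1 with the level correction and 1 to 3 with a library left out. With the longest transcript in place of merged exons, 6 of 10 members held their place in the order of each 3T3 group and 10 of 10 in Scid.adh. Rbpj then stood above Jag1 in normal 3T3 cells (12.5 against 5.81 per kb). The Notch1 share became 77.6% and 76.9% in empty-vector and 65.0% and 66.1% in knockout libraries. The Notch2 share became 94.5% and 94.2% in normal and 89.7% and 90.9% in induced libraries.

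Signs changed for values that were not called. Notch2 in 3T3 was 0.012 with the length correction and Notch3 in Scid.adh -0.021 with no filter. With a library left out, Jag2 in 3T3 ran from -0.12 to 0.20 and Itgal in 3T3 from -0.19 to 1.03, both below 0 without the first induced library. The difference between lines of Rbpj was 0.019 with the size factors of DESeq2, 0.020 with DESeq2, 0.18 with the length correction, and from -0.16 to 0.18 with a library left out (above 0 without the first induced, the second empty-vector or the second knockout library). That of Maml1 was 0.077 with the length correction. That of Lfng was 0.18 with the level correction and from -0.95 to 0.062 with a library left out, above 0 without the first empty-vector library.

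Libraries of the groups share replicate numbers, but same-numbered libraries did not deviate together over all tested genes (r = 0.0124 in 3T3 and 0.00147 in Scid.adh). This check cannot exclude a pairing, since counting noise in low genes also lowers r. With the replicate block 3 members were called up in 3T3, Notch3 (0.58) and Lfng (0.53) joining Notch1. With 2 libraries a group and 60 counts or fewer for Jag2 and Dll1 in each Scid.adh library, depth limits what can be said of the ligands there.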
